A study of Mus musculus with 6 samples.

Results

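A set of 10 genes that neurons use while young and still extending processes was followed in 6 libraries, all at postnatal day 18. Of these libraries, 3 were from mice with a deletion of a large enhancer of Atoh7 (enhancer KO) and 3 from wild-type mice (WT). The genes were picked out by symbol from the 24411 genes of the count tables: Dcx, Gap43, Stmn1, Stmn2, Sox4, Sox11, Dpysl3, Dpysl5, Marcksl1 and Igfbpl1. The enhancer KO genotype is labelled Atoh7 Large Enhancer KO and the other WT. Neither label gives a strain, the sex, whether 1 or both alleles are deleted, or where the deletion lies. ATOH7 is a transcription factor of the basic helix-loop-helix family that retinal ganglion cells need to form, and the series sets the deletion beside WT in the developing cerebellum. The labels call the replicates independent without naming animals, so p-values measure the spread between these libraries. By Xist and Ddx3y, given below, WT replicate 1 was read as female and the other libraries as male. Among libraries of the same sex the spread may be technical.

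A young neuron migrates, settles and grows an axon tipped by a growth cone, whose dynamic microtubules and actin filaments steer it towards its target. SoxC transcription factors turn on the genes of this stage, stathmins, doublecortin and collapsin response mediators act on its microtubules, and the membrane proteins GAP43 and MARCKS-like 1 act on its actin. In the mouse cerebellum the last granule neurons are born and migrate inward during the third week after birth. Some of them, among them Gap43 and Stmn2, stay on in mature neurons that remodel their axons.

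Reads in genes numbered 36849747 to 40858310 in the enhancer KO libraries and 22812075 to 33076111 in the WT libraries. Source and tissue fields of the labels say retina, while the protocol and design say cerebellum. Summed levels of 14 granule neuron markers were 2138 to 2655 CPM (read counts relative to the scaled library size) in enhancer KO and 3424 to 4078 CPM in WT. The photoreceptor genes Gnat1 and Crx had at most 5 reads in any library, so the tissue was read as cerebellum. Atoh7 itself was at 0.744, 0.858 and 0.695 CPM in enhancer KO and at 1.94, 2.05 and 2.13 CPM in WT (log2 of enhancer KO over WT -1.41 ± 0.205, SE; edgeR adjusted p = 0.000353). Reads that fell outside annotated exons were 16.8% to 18.2% of the total in enhancer KO and 31.1% to 34.1% in WT (exact two-sided permutation p = 0.1, the smallest that 3 against 3 can give). WT replicate 1 alone had high Xist (1054 CPM, against at most 1.37 CPM elsewhere). It had 0 CPM of the Y-linked Ddx3y, against 91.4 to 106 CPM elsewhere. It was thus read as female and the other libraries as male, so that sex was mixed in WT but not in enhancer KO. WT replicate 2 had 20.4% of its reads unmapped, against at most 8.32% elsewhere. Of the reads in genes, the ribosomal precursor Rn45s took 1.51% to 1.68% in enhancer KO, 12.9% in WT replicate 2 and at most 3.02% in the other WT libraries. Of 9 nuclear long noncoding RNAs 8 were lower in enhancer KO (edgeR adjusted p under 0.05; median log2 fold change -1.54), as were 17.9% of all genes tested. Their sums were 5999 to 7392 CPM in enhancer KO and 15609 to 18086 CPM in WT. Xist, the gene of this list that did not pass, enters the median and the sums, with 1054 CPM of the 18086 CPM in WT replicate 1. The part of these differences between libraries in the members' values was not tested. WT replicates 2 and 3 each had 222 summed CPM of midbrain and brainstem neuron markers, against 343 to 359 CPM in enhancer KO and 341 CPM in WT replicate 1. Slc17a6 (184, 135 and 131 CPM in WT replicates 1, 2 and 3) and Tcf7l2 (78.8, 34.7 and 30.7 CPM) made up most of this split. Of 11 markers tested, 7 had their highest WT level in replicate 1, while Otx2, Pou4f1, Gata2 and Calca had it in another WT library.

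All 10 genes were read well enough to be tested, and 1 of them changed. Gap43 rose in enhancer KO, the other 9 did not pass (edgeR quasi-likelihood test, Benjamini-Hochberg adjusted p under 0.05 over all 15846 genes tested), and none fell. Of all genes tested 31.3% were called, 13.4% as higher and 17.9% as lower, so calls among the 10 were no more frequent than in the background. With library size as the only scaling, 43.8% of the calls over all genes were lower, against 57.3% with the scaling used here. The median log2 fold change was 0.03 over the 10 genes and 0.00 over all genes tested. Summed over the 10 genes, levels were 1305, 1312 and 1355 CPM in enhancer KO and 1251, 1291 and 1344 CPM in WT, ranges that overlap. In tissue homogenates, fewer cells of a type and less RNA per cell cannot be told apart.

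**Figure D1:**
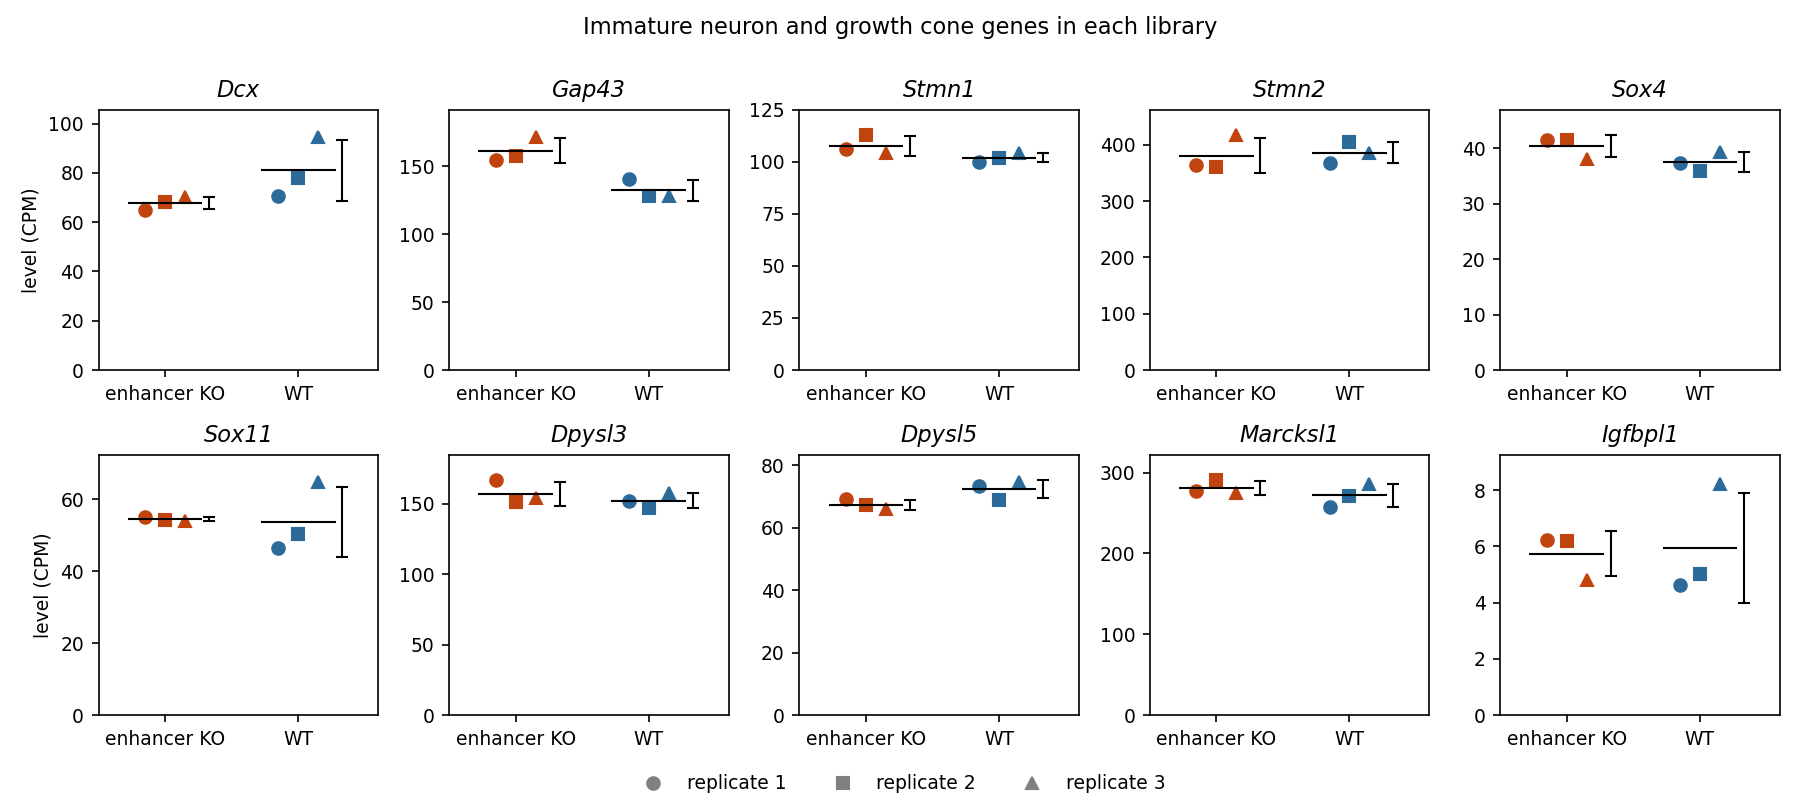
Level (CPM) of each of the 10 genes in each library, enhancer KO left and WT right; symbols mark replicates 1 to 3, horizontal lines the mean and the bars beside them the SD (n = 3). Gap43 lies at 155 to 172 CPM in enhancer KO, above 128 to 141 CPM in WT, while WT replicate 3 stands above the other WT libraries for Dcx, Sox11 and Igfbpl1.

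Sequence before the start sites was looked up for all 10 members. RefSeq windows on GRCm38.p6 (the build called mm10) from 250 bases before to 50 bases after the start site were found for 5 of the 10 members, Dcx, Sox4, Sox11, Dpysl5 and Marcksl1, and not for Gap43, Stmn1, Stmn2, Dpysl3 and Igfbpl1. Shown are Dcx (chrX:143933170-143933469, minus strand, the first of 2 windows), Sox11 (chr12:27342669-27342968, minus strand) and its paralog Sox4 (chr13:28953650-28953949, minus strand), each 5′ to 3′. Capitals mark E-boxes, the motif CANNTG that basic helix-loop-helix factors such as ATOH7 bind as a family.
Dcx: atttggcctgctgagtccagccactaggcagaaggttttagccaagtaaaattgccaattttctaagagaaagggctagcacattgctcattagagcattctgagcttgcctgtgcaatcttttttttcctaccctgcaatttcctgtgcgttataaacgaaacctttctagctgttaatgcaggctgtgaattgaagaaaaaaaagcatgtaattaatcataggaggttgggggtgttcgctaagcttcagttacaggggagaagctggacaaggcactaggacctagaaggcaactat
Sox11: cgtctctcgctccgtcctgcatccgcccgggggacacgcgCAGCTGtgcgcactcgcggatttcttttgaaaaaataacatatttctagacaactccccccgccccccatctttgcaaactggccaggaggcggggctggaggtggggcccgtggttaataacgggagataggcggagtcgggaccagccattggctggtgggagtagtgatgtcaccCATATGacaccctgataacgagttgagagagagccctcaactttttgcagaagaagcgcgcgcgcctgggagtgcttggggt
Sox4: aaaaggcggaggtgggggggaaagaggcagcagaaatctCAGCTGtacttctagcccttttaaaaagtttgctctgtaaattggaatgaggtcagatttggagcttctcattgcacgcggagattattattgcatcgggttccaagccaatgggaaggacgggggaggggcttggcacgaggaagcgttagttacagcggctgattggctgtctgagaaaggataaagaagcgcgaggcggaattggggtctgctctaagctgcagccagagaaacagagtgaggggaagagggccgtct
The Dcx window shown is AT-rich, with 43.0% G and C and no E-box, and holds TATAAA at position -98, counted from the start site. In the second Dcx window, counted from its own start site, TATAAA lies at position -193. Sox11 has 58.7% G and C and 2 E-boxes, of which the upstream one, at position -210, reads CAGCTG and the one nearer the start site, at position -32, reads CATATG. Sox4 has 52.0% G and C and a single E-box at position -211, with the same letters as the upstream one of Sox11. Over all 32851 such windows, read on both strands, 72.3% hold an E-box of any kind. The upstream E-box of Sox11 and Sox4 is in 16.3% of the windows and the E-box nearer the Sox11 start site in 3.91%, and both are counted among the E-boxes of any kind. The TATAAA motif is in 13.6% of the windows. CCAAT, read on either strand, lies at 4 places of the Sox4 window and at 1 place of the Sox11 and of the Dcx window, and is in 37.4% of all windows. These letters are a description of the windows, not of any factor bound there.

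Gap43, the growth cone phosphoprotein that binds calmodulin and is phosphorylated by protein kinase C, was the member that rose. It lies on chromosome 16 at 42248442 to 42340651 on the minus strand of mm10, where introns make up 98.3% of its span. Its levels were 155, 158 and 172 CPM in enhancer KO and 141, 128 and 128 CPM in WT, from 5830, 6083 and 7190 reads and from 4564, 2619 and 4336 reads. Every enhancer KO library lay above every WT library, which held in the same direction for 20.5% of all genes tested. Gap43 thus rose by 22.3%, or 0.29 ± 0.0530 on the log2 scale (SE; edgeR adjusted p = 0.00156), with a 95% interval of 0.17 to 0.41. Leaving out any 1 library kept the call (log2 fold change 0.24 to 0.34; edgeR adjusted p 0.000215 to 0.0101). With WT replicate 1, read as female, as the only WT library, the estimate was 0.23, from a fit with no spread within WT. Among WT libraries Gap43 was highest in replicate 1, as were the summed midbrain and brainstem markers (341 CPM, against 222 CPM each in WT replicates 2 and 3). These markers were at 343 to 359 CPM in enhancer KO, and their part in the rise was not tested.

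A count that needs no scaling between libraries gave the same order. Gap43 reads made up 13.5%, 13.7% and 14.6% of the summed reads of the other 9 genes in enhancer KO, and 12.7%, 11.0% and 10.6% in WT. The means of 13.9% ± 0.581 in enhancer KO and 11.4% ± 1.12 in WT (SD, n = 3 each) differed by 2.24 times the larger SD (exact two-sided permutation p = 0.1, the smallest possible). This ratio was chosen after the values were seen. The call was lost when each library's trend over gene structure (length of introns, spliced length and GC content) was taken out (log2 fold change 0.14; edgeR adjusted p = 0.127), and when a minimum fold of 1.2 was asked for (edgeR adjusted p = 0.683). Reads outside exons moved with the groups as given above, and their part in the rise was not tested.

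Marcksl1, the other membrane and actin-binding member and also a substrate of protein kinase C, had 277, 291 and 275 CPM in enhancer KO and 258, 271 and 286 CPM in WT. The groups overlapped, with WT replicate 3 inside the enhancer KO range. Its estimate of 0.05 ± 0.0476 on the log2 scale (SE; edgeR adjusted p = 0.490) has a 95% interval of -0.06 to 0.15. Whether Gap43 and Marcksl1 differed in their change was not tested.

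Per length, the 10 genes spanned about 2 orders of magnitude, and the order was much the same in both groups. In TPM (counts divided by the length of all annotated exons, relative to their sum in the library), Marcksl1 was at 836 ± 26.3 in enhancer KO and 839 ± 41.6 in WT (SD, n = 3 each). Gap43 came next at 508 ± 28.6 TPM in enhancer KO and 431 ± 28.1 TPM in WT. Stmn2 (325 ± 26.9 TPM in enhancer KO, 342 ± 12.4 TPM in WT), Stmn1 (268 ± 11.8 and 263 ± 4.26 TPM) and Dpysl3 (114 ± 6.07 and 115 ± 4.84 TPM) followed. The range of each of these over all 6 libraries was clear of its neighbours' in the order. Dpysl5 was at 43.7 ± 1.06 TPM in enhancer KO and 48.6 ± 2.41 TPM in WT, above Sox4 at 40.3 ± 2.06 and 38.9 ± 2.02 TPM. Sox4, Sox11 (31.3 ± 0.349 TPM in enhancer KO, 32.1 ± 5.77 TPM in WT) and Dcx (25.7 ± 0.965 and 31.8 ± 4.77 TPM) overlapped each with the next, so that their order is not resolved. Igfbpl1 was lowest at 8.45 ± 1.18 TPM in enhancer KO and 9.08 ± 2.99 TPM in WT. Marcksl1 stood above 99.6% of all genes with a length and Igfbpl1 above 51.1%.

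**Figure D2:**
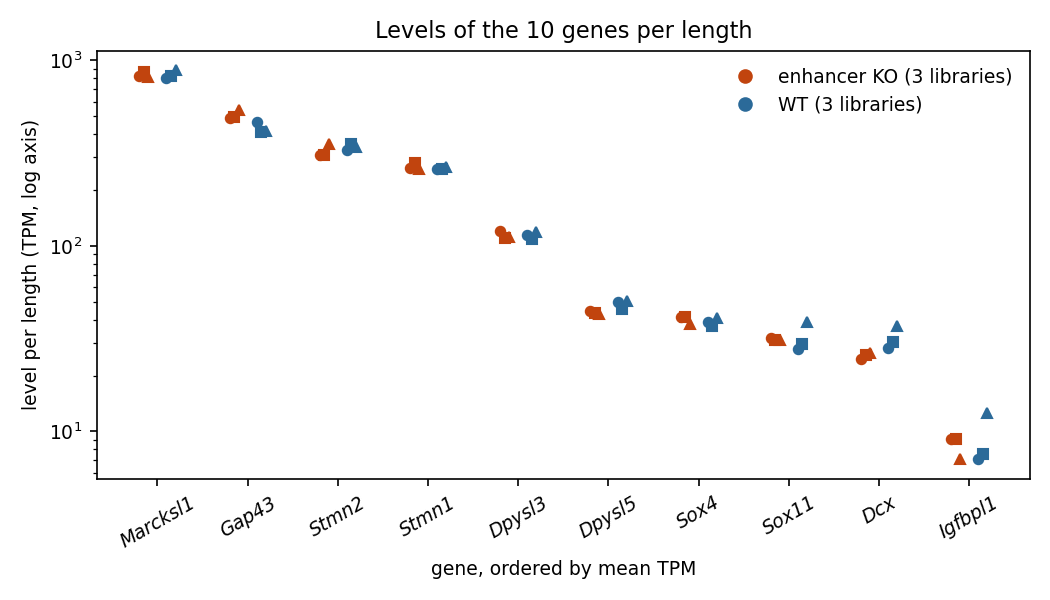
Level per length (TPM, log axis) of the 10 genes in each library, enhancer KO left and WT right within each gene, circles, squares and triangles for replicates 1, 2 and 3. Marcksl1 is highest at 804 to 885 TPM and Igfbpl1 lowest at 7.08 to 12.5 TPM.

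Dcx, the doublecortin gene, whose protein binds and stabilizes the microtubules of migrating neurons, had the most negative estimate and did not pass. It is X-linked, at 143855842 to 143933311 on the minus strand of mm10. Levels were 65.0, 68.4 and 70.1 CPM in enhancer KO and 70.5, 78.0 and 94.6 CPM in WT. The groups did not overlap, as for 44.8% of all genes tested in either direction, but WT replicate 1 lay within 1 CPM of enhancer KO replicate 3, and the WT spread was wide (coefficient of variation 15.2%, against 3.83% in enhancer KO). The log2 fold change was -0.26 ± 0.102 (SE), with an unadjusted p of 0.0387 and an edgeR adjusted p of 0.0997. The call depended on the libraries and the fit used. Without WT replicate 1, the sole library with high Xist, Dcx was lower at -0.35 (edgeR adjusted p = 0.00583). Without WT replicate 3 its log2 fold change was -0.13 (edgeR adjusted p = 0.153), and with WT replicate 1 as the only WT library -0.03 (0.779). With all libraries it was called lower by DESeq2 (adjusted p = 0.0178) and with the replicate number as a block (edgeR adjusted p = 0.0174), numbers that do not pair these libraries. Xist and the summed midbrain and brainstem markers also set WT replicate 1 apart from the other WT libraries, and their part in these values was not tested.

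The stathmins bind tubulin and promote the disassembly of microtubules, Stmn1 in the cytosol of young and dividing cells and Stmn2 on the membranes of neurons and their growth cones. Stmn1 had 106, 113 and 104 CPM in enhancer KO and 100, 102 and 104 CPM in WT. Enhancer KO replicate 3 and WT replicate 3 lay within 1 CPM of each other, and the groups otherwise stood apart. On the log2 scale it differed by 0.08 ± 0.0437 (SE; edgeR adjusted p = 0.188; 95% interval -0.01 to 0.18). Stmn2 had 364, 361 and 417 CPM in enhancer KO and 368, 405 and 386 CPM in WT, with the highest and the lowest library both from enhancer KO. For Stmn2 the estimate was -0.02 ± 0.0610 (SE; edgeR adjusted p = 0.823; 95% interval -0.16 to 0.11). These intervals leave out a change of the size estimated for Gap43 in both stathmins.

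Dpysl3 and Dpysl5 encode collapsin response mediator proteins, which bind tubulin and take part in the response of growth cones to semaphorins. Dpysl3 had 167, 151 and 154 CPM in enhancer KO and 152, 147 and 158 CPM in WT, overlapping groups that differed by 0.04 ± 0.0477 on the log2 scale (SE; edgeR adjusted p = 0.542). Dpysl5 had 69.1, 67.2 and 65.9 CPM in enhancer KO and 73.4, 69.0 and 74.6 CPM in WT. WT replicate 2 fell just inside the enhancer KO range, and the other WT libraries were above it. Its log2 fold change was -0.10 ± 0.0453 (SE), with an unadjusted p of 0.0422 and an edgeR adjusted p of 0.107. In none of 18 alternative fits did Dpysl3 or Dpysl5 pass.

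The SoxC factors Sox4 and Sox11 are single-exon genes that switch on the program of newborn neurons, and Sox4 is also active in other young cells such as those of the oligodendrocyte lineage. Sox4 had 41.6, 41.5 and 38.1 CPM in enhancer KO and 37.3, 35.9 and 39.4 CPM in WT, with enhancer KO replicate 3 inside the WT range (log2 fold change 0.10 ± 0.0575, SE; edgeR adjusted p = 0.205). Sox11 was nearly level in enhancer KO at 55.0, 54.3 and 53.9 CPM, and spread to both sides of it in WT at 46.3, 50.2 and 64.7 CPM. With all libraries its estimate was 0.01 ± 0.119 on the log2 scale (SE; edgeR adjusted p = 0.942). Without WT replicate 3 Sox11 was called higher in enhancer KO (0.18; edgeR adjusted p = 0.0448). With WT replicate 1 as the only WT library, a fit with no spread within WT, the estimate was 0.26. Without WT replicate 1 the estimate was -0.09 (edgeR adjusted p = 0.523). A direction for Sox11 therefore rests on which WT libraries are used.

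Igfbpl1, a secreted relative of the insulin-like growth factor binding proteins that marks newborn neurons, was the rarest member. It had 6.22, 6.19 and 4.82 CPM in enhancer KO, from 234, 238 and 201 reads, and 4.63, 5.03 and 8.20 CPM in WT, from 150, 103 and 277 reads. WT replicate 3 was the highest of all and WT replicate 1 the lowest. The estimate of -0.07 ± 0.217 on the log2 scale (SE; edgeR adjusted p = 0.849) has a 95% interval of -0.56 to 0.43, so that a change as large as that of Gap43 was not detectable for this gene. Without WT replicate 3 the estimate was 0.25 (edgeR adjusted p = 0.287).

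**Figure D3:**
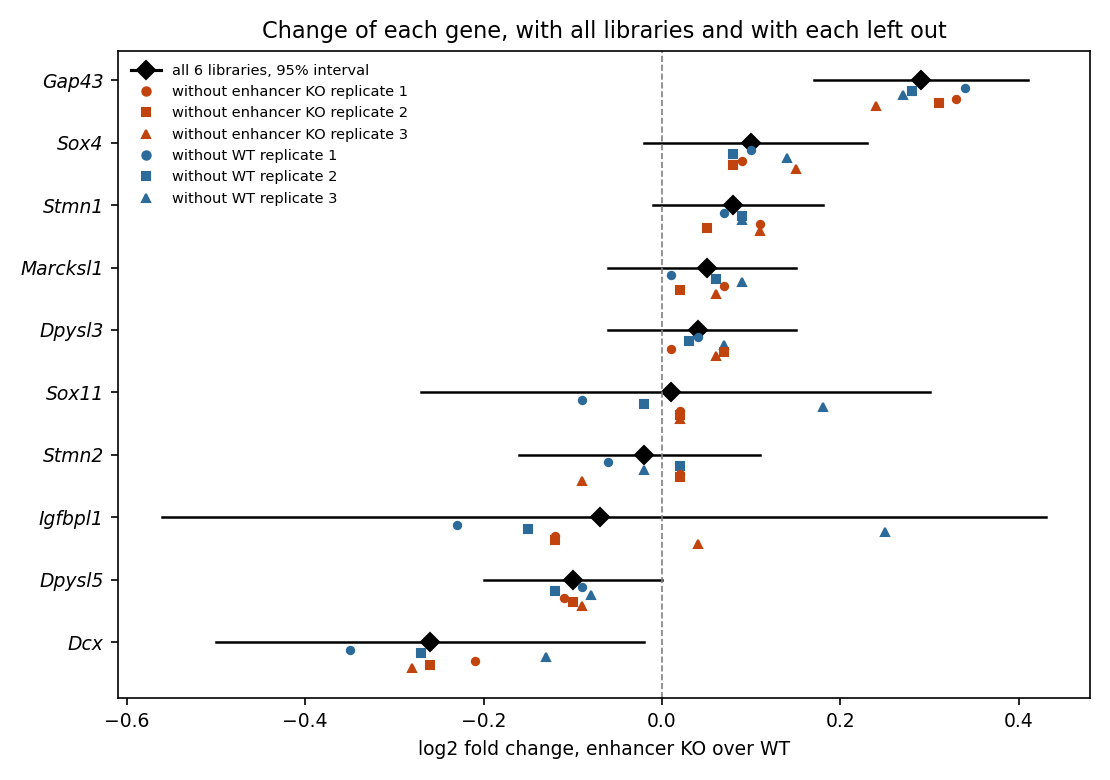
Log2 fold change of each gene, enhancer KO over WT, with all 6 libraries (black diamonds; lines are 95% intervals) and with each library left out (small symbols). Gap43 keeps to 0.24 to 0.34 whichever library is left out, while Sox11 runs between -0.09 and 0.18 and Igfbpl1 between -0.23 and 0.25.

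Within the WT group, 3 members set 1 library apart. WT replicate 3 was above the mean of the other WT libraries by 0.35 for Dcx, 0.42 for Sox11 and 0.76 for Igfbpl1 on the log2 scale. Coefficients of variation over the WT libraries were 15.2%, 18.1% and 32.9% for these genes, each above 95.2% or more of the 11848 genes with a mean of at least 5 CPM, whose median was 5.01%. In enhancer KO they were 3.83% for Dcx, 1.04% for Sox11 and 13.9% for Igfbpl1, where the median over the same genes was 4.17%. For the other 7 members WT replicate 3 differed from the mean of the other WT libraries by at most 0.12 on the log2 scale. Of the 10 members, 8 had their highest WT level in replicate 3, against 31.1% of all genes tested.

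Deviations from group means followed the same lines. Over the 6 libraries, with depth and scaling shared among the genes, Pearson's r of these deviations was 0.95 between Dcx and Sox11, 0.92 between Sox11 and Igfbpl1 and 0.78 between Dcx and Igfbpl1. It was 0.83 between Sox11 and Marcksl1 and 0.78 between Stmn1 and Marcksl1. Gap43 ran the other way from these genes, at -0.34 with Dcx, -0.50 with Sox11, -0.67 with Igfbpl1, -0.67 with Marcksl1 and -0.55 with Stmn1. It was also negative with Sox4 (-0.56), Dpysl3 (-0.34) and Dpysl5 (-0.12), and positive only with Stmn2 (0.30). Without removing the group means, r between Gap43 and Dcx was -0.73. These values describe 6 libraries, and WT replicate 3 weighs heavily in those of Dcx, Sox11 and Igfbpl1.

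**Figure D4:**
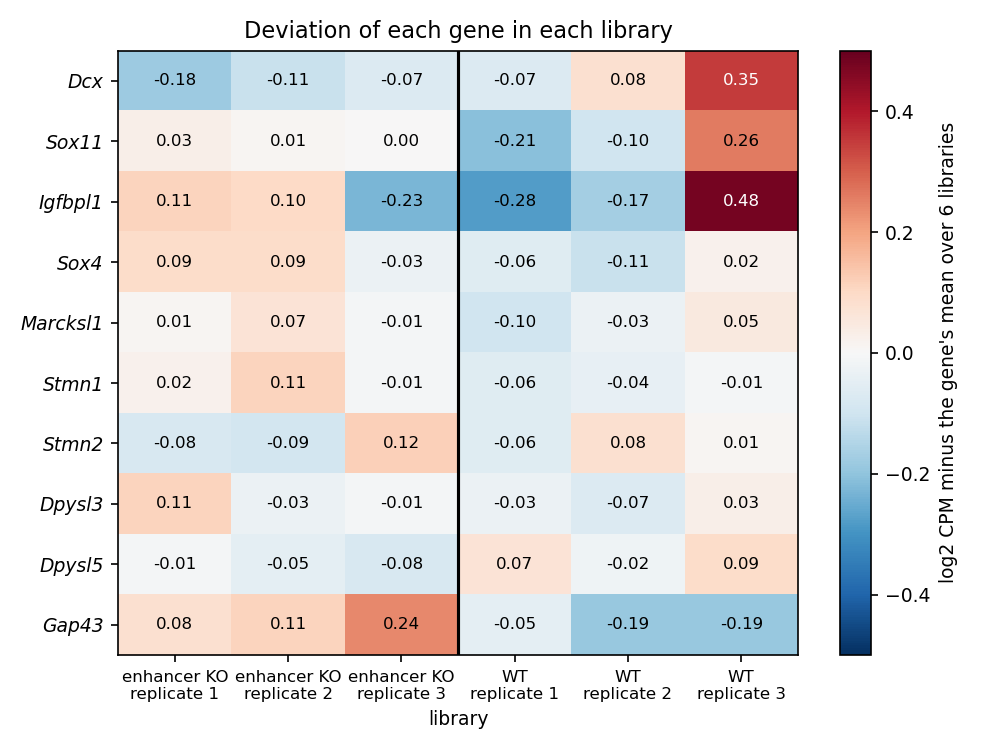
Deviation of each gene in each library from its mean over the 6 libraries (log2 CPM), enhancer KO left and WT right of the black line. WT replicate 3 stands out for Dcx (0.35), Sox11 (0.26) and Igfbpl1 (0.48), and Gap43 is positive in each enhancer KO library and negative in each WT library.

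Markers of cells that could hold these transcripts were measured beside them. In WT replicate 3, 8 of 18 other immature neuron genes, 7 of 13 proliferation genes and 6 of 11 granule precursor markers had their highest WT level, against 31.1% of all genes tested. WT replicate 2 held the highest WT level of as many immature neuron genes, 8 of 18, and of 5 proliferation genes and 3 granule precursor markers. Levels went both ways within these lists, and the following genes were named after their values were seen. Nhlh1, a basic helix-loop-helix gene of newborn neurons, was at 7.43 CPM, against 3.67 and 4.59 CPM in the other WT libraries, while Neurod1, also a gene of young and mature granule neurons, was at 220 CPM there, between 191 CPM in WT replicate 1 and 239 CPM in WT replicate 2. The proliferation gene Mki67 was at 13.0 CPM in WT replicate 3, against 8.91 and 11.2 CPM, and Ccna2, also of that list, at 3.37 CPM, against 3.64 and 3.66 CPM. The granule precursor markers were summed at 634 CPM in that library and at 576 and 608 CPM in the other WT libraries. Cntn2 alone made up 331 CPM of the first sum, and 303 and 316 CPM of the others. Atoh1, which defines granule precursors, had at most 7 reads in any library and was not tested. All 8 choroid plexus markers and 8 of 10 endothelial markers also had their highest WT level in replicate 3. So did 7 of 12 Purkinje, 7 of 11 interneuron and 6 of 10 astroglia markers, against 0 of 9 oligodendrocyte and 2 of 10 microglia markers. Whether any of these bears on the members was not tested.

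Between the groups, the granule precursor list had 2 of 11 tested markers lower, Boc and Cntn2, and 0 higher. This was close to the 17.9% of all genes called lower. Its sums were 487 to 517 CPM in enhancer KO and 576 to 634 CPM in WT. Within them Cntn2 made up 222 to 237 CPM in enhancer KO and 303 to 331 CPM in WT, and Boc 39.3 to 42.0 and 56.9 to 66.5 CPM. Of 13 proliferation genes 0 passed (edgeR), and their sums overlapped at 88.8 to 100 CPM in enhancer KO and 86.5 to 101 CPM in WT. Oligodendrocyte precursor and newly formed oligodendrocyte markers summed to 1337 to 1422 CPM in enhancer KO and 1344 to 1401 CPM in WT, with 1 of 12 higher and 2 lower. All 14 granule neuron markers were lower, among them Neurod1, which is also in the immature neuron list. The part of these cell types in the members' levels was not tested.

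Of 20 other genes of growth cones and the neurite cytoskeleton, 2 were higher and 6 lower in enhancer KO and 12 did not pass, where 13.4% of all genes were called higher and 17.9% lower. Their median log2 fold change was -0.04, against 0.00 over all genes tested. Dpysl4, a paralog of Dpysl3 and Dpysl5, had 65.2, 64.2 and 71.0 CPM in enhancer KO and 88.2, 90.0 and 98.9 CPM in WT (log2 fold change -0.47 ± 0.0555, SE; edgeR adjusted p = 8.44e-05). Its groups stood apart, and it passed in each of 18 alternative fits. Dclk2, a kinase with doublecortin domains and thus a relative of Dcx, fell to 74.4 ± 4.12 CPM in enhancer KO, against 94.8 ± 2.67 CPM in WT (SD, n = 3 each; edgeR adjusted p = 0.000276). The axonal adhesion molecule gene L1cam had 139 ± 0.494 CPM in enhancer KO and 165 ± 3.82 CPM in WT (edgeR adjusted p = 0.000668). Gprin1, which encodes a growth cone protein that binds G proteins, had 75.6 ± 4.98 and 89.1 ± 4.64 CPM (edgeR adjusted p = 0.00715). L1cam and Gprin1 lost their calls with library size as the only scaling (edgeR adjusted p = 0.0866 and 0.105), and Gprin1 also without enhancer KO replicate 1 (0.0505). With a minimum fold of 1.2, Dpysl4 was the only call left in the list. The list held 3 calls with library size alone, 5 with the trend over gene structure removed, 4 without enhancer KO replicate 2, and 5 when 1 of enhancer KO replicate 1, enhancer KO replicate 3, WT replicate 2 or WT replicate 3 was left out.

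Relatives within 1 protein family differed in their calls, though differences between paralogs were not tested. Of the collapsin response mediators, Dpysl4 fell, Dpysl2 rose (1230 to 1233 CPM in enhancer KO, 1104 to 1168 CPM in WT; edgeR adjusted p = 0.0322), and Dpysl3, Dpysl5 and Crmp1 did not pass. Of the doublecortin family, Dclk1 and Dclk2 fell and Dcx did not pass. None of the stathmins Stmn1, Stmn2, Stmn3 and Stmn4 passed. Basp1, a membrane protein often grouped with GAP43 and MARCKS, rose to 197 ± 7.55 CPM in enhancer KO, against 164 ± 19.7 CPM in WT (SD, n = 3 each; edgeR adjusted p = 0.0371), and Marcks did not pass (edgeR adjusted p = 0.0756). Basp1 and Dpysl2, the 2 higher genes of the list, both lost their calls with the replicate block, with the gene-structure trend removed, with a minimum fold of 1.2, with WT replicate 1 as the only WT library, and without enhancer KO replicate 2 or 3 or WT replicate 2 or 3, where 0 genes of the list were higher. Without enhancer KO replicate 1, or with library size alone, 1 gene of the list was higher. Dpysl2, Basp1, Dclk1, Crmp1 and Marcks were named here after their values were seen, as relatives of members.

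Of 18 other immature neuron genes, 3 were higher and 6 lower, with a median log2 fold change of -0.08, where 13.4% of all genes were called higher and 17.9% lower. Neurod1, 1 of the lower genes, is also among the 14 granule neuron markers, all of which were lower. Rnd2, a small GTPase of migrating neurons, was at 109 ± 4.60 CPM in enhancer KO and 79.7 ± 3.61 CPM in WT (SD, n = 3 each; log2 fold change 0.45; edgeR adjusted p = 3.97e-05). The transcription factor genes Prox1 and Nhlh2 fell by 0.28 and 0.48 on the log2 scale, and the secreted axon guidance gene Draxin, at 4.81 to 6.50 CPM in enhancer KO and 7.62 to 11.5 CPM in WT, by 0.83 (edgeR adjusted p = 0.00219, 0.00335 and 0.00434). With WT replicate 1 as the only WT library, Prox1, Nhlh2 and Draxin did not pass (edgeR adjusted p = 0.105, 0.185 and 0.158), and 2 genes of the list were called. Prox1 also missed the threshold with library size alone (0.0519). Without enhancer KO replicate 2, 4 were called.

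Of 13 genes for kinases, kinase activators, calmodulins and the calmodulin-binding proteins Nrgn and Pcp4, 5 were higher and 1 lower, with a median log2 fold change of 0.09, beside the 13.4% higher and 17.9% lower over all genes. Pcp4 is also in the Purkinje marker list. Calm3, a calmodulin gene, was at 1389 ± 53.3 CPM in enhancer KO and 1199 ± 42.1 CPM in WT (SD, n = 3 each; edgeR adjusted p = 0.00335). Cdk5r2, an activator of the kinase CDK5, rose by 0.24 on the log2 scale and the kinase gene Gsk3b by 0.18 (edgeR adjusted p = 0.00215 and 0.00526). With a minimum fold of 1.2 no gene of the list was called. Calmodulin genes are expressed in all neurons, Purkinje cells included, for which 8 of 12 markers passed as higher, with sums of 6558 to 7027 CPM in enhancer KO and 4737 to 5695 CPM in WT; their part in the list's values was not tested. Nrgn, which encodes the calmodulin-binding protein neurogranin, had the largest estimate of the list, 1.55 on the log2 scale, and did not pass (edgeR adjusted p = 0.276). It was at 86.3, 85.6 and 103 CPM in enhancer KO and at 70.8, 12.1 and 8.49 CPM in WT, and was named after its values were seen. The summed midbrain and brainstem markers split the WT libraries in the same way. All 3 lists come from libraries that also differ in reads outside exons, 16.8% to 18.2% in enhancer KO and 31.1% to 34.1% in WT.

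**Figure D5:**
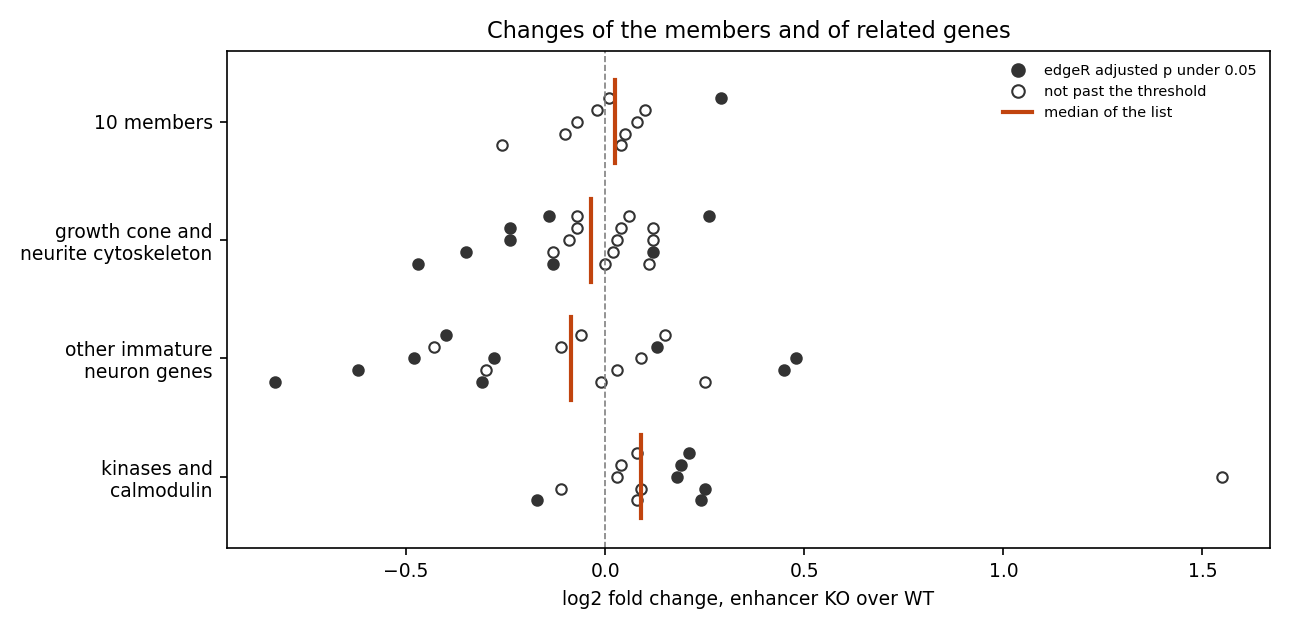
Log2 fold change of each of the 10 members (top) and of the genes of 3 related lists, enhancer KO over WT; filled points pass an edgeR adjusted p of 0.05 and bars are medians. The medians are 0.03, -0.04, -0.08 and 0.09 from top to bottom, and the point at 1.55 is Nrgn.

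Averaged over the 10 members, log2 CPM was 6.41, 6.42 and 6.39 in enhancer KO and 6.31, 6.34 and 6.50 in WT. Of 10301 other genes with a mean of at least 10 CPM, those that followed this average most closely over the 6 libraries were Tom1 (Pearson's r = 0.986), Hunk (0.978), Slc35c1 (0.975), Tob2 (0.957) and Tmem206 (0.953). None of these 5 passed the test between the groups. With 6 points and so many candidates such values are only a description.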

How the data were processed

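RNA of 3 enhancer KO and 3 WT samples was sequenced in bulk. The authors used Trimmomatic, STAR and the mm10 build, per the submitters' processing notes; the annotation, versions and parameters were not given in the sources used here. Raw read counts per gene were deposited by the authors, with no normalization. The 4 rows that name no gene, 35.9% to 61.9% of reads, stayed out of library sizes and tests. Column 4 was used, since the other strand held 1.62% to 1.88% of stranded reads. Every pair of libraries differed beyond sampling noise (lowest median chi-square per gene 1.08, against 0.455 for noise alone).

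Genes kept by filterByExpr (15846) were scaled by TMM and tested with edgeR 4.0.16 in R 4.3.3 (robust quasi-likelihood, two-sided, Benjamini-Hochberg threshold 0.05); the test was checked on simulated counts. CPM are counts over TMM-scaled library sizes, SE come from the F statistic, and ± is SD or SE as marked. TPM left out ribosomal and small RNA genes and used exon lengths from GENCODE release M21, which is on the same build. The members and lists were chosen with earlier results of these data known. All members were named, with up to 4 genes past the threshold per related list; some genes of the lists are not reported here. Alternatives covered scaling (RLE, library size alone), filters on low counts, removal of ribosomal and small RNA genes, the replicate number as a block, the unstranded column, limma-voom (limma 3.58.1), DESeq2 1.42.0, a minimum fold, a gene-structure trend (mgcv 1.9.3), a threshold of 0.1 and left-out libraries.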

Additional observations from a re-analysis of the deposited data

How the results depend on the processing

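Gap43 stayed higher in enhancer KO and past the threshold in 16 of 18 alternative fits (log2 fold change 0.14 to 0.35), the exceptions being the gene-structure trend and the minimum fold. Of the 10 members, 1 was called with all libraries, 2 with the replicate block, with DESeq2, at a threshold of 0.1 and with WT replicate 1 as the only WT library (a lone library assumed to vary like the others), and 0 with the trend removed or a minimum fold of 1.2. The second was Dcx, lower, except with WT replicate 1 alone, where it was Sox11, higher. Over all genes 4964 were called, 991 with the minimum fold and 3129 with WT replicate 1 alone. The growth cone list held 8 calls, against 3 with library size alone, 5 with the block, 1 with the minimum fold, 5 with the trend removed and 3 with WT replicate 1 alone. The immature neuron list held 9, against 2 with the minimum fold and 2 with WT replicate 1 alone, and the kinase and calmodulin list 6, against 0 with the minimum fold. Signs of members that did not pass turned as follows. Stmn2 was at 0.05 with library size alone and 0.07 with WT replicate 1 alone, Igfbpl1 at 0.33 with WT replicate 1 alone, and Stmn1 at -0.02 and Marcksl1 at -0.00050 with the trend removed. Leaving out 1 library at a time gave 3652 to 4924 calls over all genes, 1 to 2 among the members, 4 to 9 in the growth cone list, 4 to 10 in the immature neuron list and 5 to 7 in the kinase and calmodulin list. Log2 fold changes then ran from -0.09 to 0.02 for Stmn2, from -0.09 to 0.18 for Sox11 and from -0.23 to 0.25 for Igfbpl1. The cause of these changes was not tested. Replicate numbers do not pair the libraries: deviations of same-numbered libraries correlated at 0.06, -0.05 and -0.13 over 15846 genes, and enhancer KO replicate 3 correlated best with WT replicate 2 (0.16). Igfbpl1, with 103 to 277 reads a library, is the member whose depth limits it most.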

Other observations

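Reads on the strand opposite to Sox4 were 8.32%, 6.44% and 7.73% of its stranded reads in enhancer KO and 7.49%, 7.54% and 7.31% in WT, from 142, 110 and 133 reads and from 98, 60 and 105 reads. Over all genes that share was 1.62% to 1.70% in enhancer KO and 1.76% to 1.88% in WT, and for Sox11 it was 1.24% to 1.74% and 0.868% to 1.31%. GENCODE places a long noncoding RNA gene, Gm26735, opposite Sox4 on chromosome 13 at 28943048 to 28951671 of mm10, overlapping it by 2753 bases. On the members' own strand, Gap43 spans Mir6540 (108 bases), Stmn1 spans Gm23634 (91 bases) and Dpysl5 spans Gm42764 (1446 bases). The share did not separate the groups, and these reads entered no value of Sox4 given above except the fit on the unstranded column, where Sox4 was at 0.12 (edgeR adjusted p = 0.111).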
